A study of Homo sapiens with 12 samples.

Results

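The genes described here are 10 markers by which epithelial and mesenchymal cells are told apart, measured in C4-2 cells, a human castration-resistant prostate cancer (PCa) line derived from LNCaP. They were given as a list of symbols: the luminal keratins KRT8, KRT18 and KRT19, the epithelial adhesion genes EPCAM, CDH1 and CTNNB1, and the mesenchymal genes CDH2, VIM, ZEB1 and SNAI2. Each symbol was mapped to 1 Ensembl identifier, so that 10 of the 54127 identifiers in the count files are members. The rule itself uses no measured value, though the list was drawn up with earlier results of these data known. The 2 groups were C4-2 cells transfected with 50 nM of an siRNA pool against CHKA (siCHKA, 6 samples) and C4-2 cells transfected with 50 nM of nontargeting siRNA (siNT, 6 samples). CHKA encodes choline kinase alpha, the first enzyme of the Kennedy pathway of phosphatidylcholine synthesis, and the comparison asks how the transcriptome changes when it is depleted. Both groups were the same line, transfected with the same lipid reagent and grown in medium with serum. The labels describe the RNA as coming from flow sorted cells without giving the gate, and 1 cell line and 1 siRNA pool stand for the whole comparison. The study's text speaks of biological replicates but not always of the same number of them, and the labels do not say which samples came from separate cultures. The p-values measure the spread between these samples, part of which may be technical.

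Epithelial cells are joined by adherens junctions, in which E-cadherin (CDH1) binds the E-cadherin of the neighbouring cell and is held to actin through beta-catenin (CTNNB1) and alpha-catenin. Luminal cells of the prostate carry intermediate filaments built from pairs of a type II keratin, KRT8, and a type I keratin, KRT18 or KRT19. In an epithelial-mesenchymal transition the repressors ZEB1 and SNAI2 act on CDH1 and other epithelial genes, and cells gain vimentin (VIM) and N-cadherin (CDH2).

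Reads counted on genes ranged from 10685184 to 24246055 per sample, and 3 counts corresponded to between 0.124 and 0.281 CPM (counts relative to library size, with TMM normalization for library composition). The targeted transcript averaged 40.7 CPM in siNT samples (SD 2.55, n = 6) and 2.75 CPM in siCHKA samples (SD 1.03, n = 6), or 6.76% of the siNT level. Luminal markers were measured in the C4-2 cells that the labels name. All 8, among them KLK3, HOXB13, FOXA1, FOLH1, TMPRSS2 and STEAP2, lay above 1 CPM and summed to between 5030 and 7323 CPM over the 12 samples. Of 9 basal markers only KRT14 and DST averaged above 1 CPM, and KRT17 had no read while KRT5 and TP63 averaged below 0.03 CPM in each group. Of 9 neuroendocrine markers SYP and ENO2, of 8 leukocyte and endothelial markers CD68 and VWF, and of 10 fibroblast and smooth muscle markers COL1A1 and PDGFRB averaged above 1 CPM. The siCHKA libraries fell into sets. Replicates 1, 3 and 5 differed from each other, and replicates 2, 4 and 6 from each other, by a chi-square per degree of freedom of 2.45 to 9.63 over all genes, whereas pairs across the sets differed by 12.9 to 25.5. Among siNT libraries the same measure ran from 2.52 to 31.3. The members' changes and the counts of the junction and pathway lists are therefore also given for each set against all 6 siNT samples, the counts where they move by over 1.5 times.

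Of the 10 genes, 8 passed edgeR's filter on low counts. CDH2 and ZEB1 did not. At an adjusted p-value below 0.05 from edgeR's quasi-likelihood test, KRT8 and CDH1 were higher after siCHKA and EPCAM and KRT18 were lower, while CTNNB1, KRT19, VIM and SNAI2 did not pass. These 4 calls stand against a background in which 62.2% of the 14501 tested genes passed, 32.1% higher and 30.1% lower. The median log2 fold change was -0.11 over the 8 genes and 0.03 over all tested genes. KRT8 and EPCAM were the 2 members whose 12 values did not overlap between the groups, as was so for 40.6% of all tested genes. In bulk RNA a smaller share of cells with a transcript and less of that transcript per cell cannot be told apart.

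**Figure D1:**
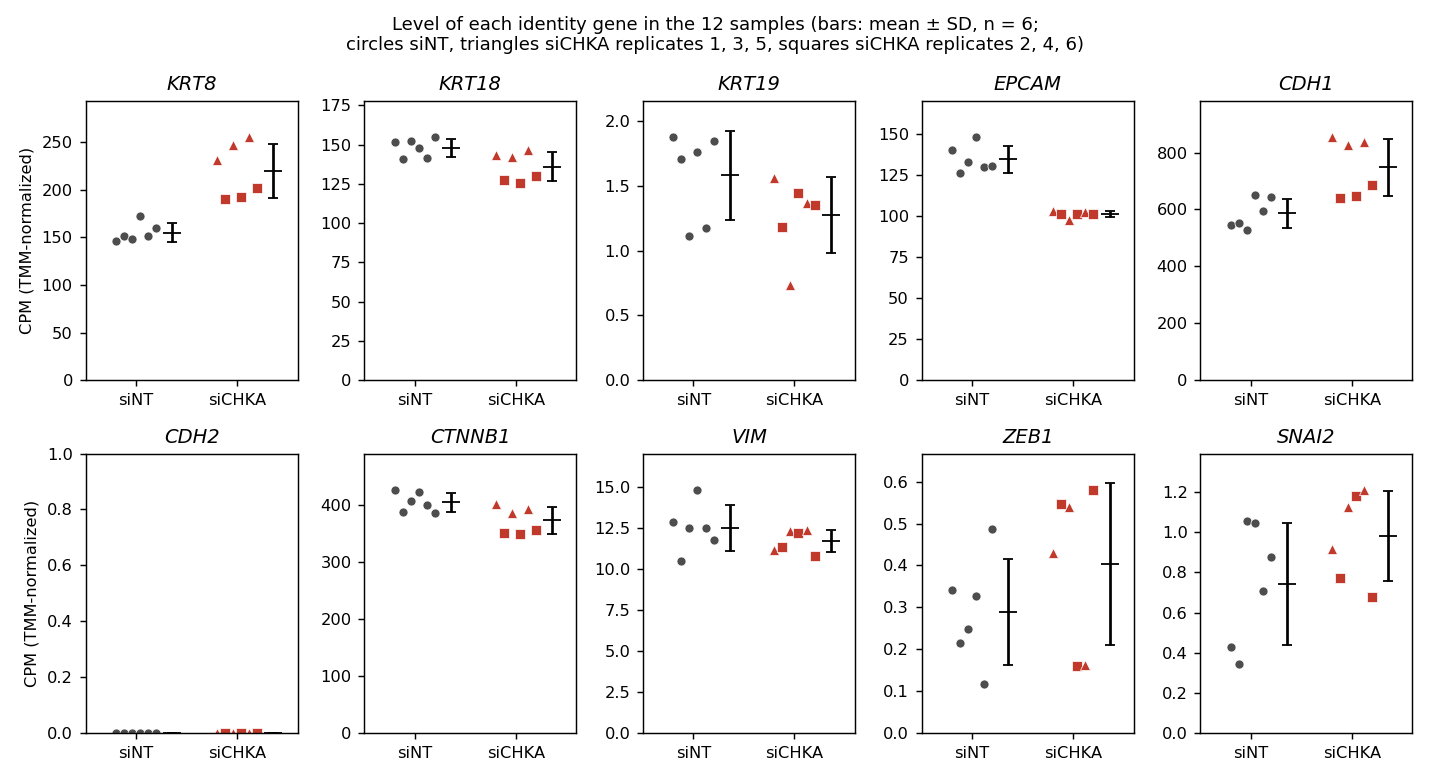
CPM of each of the 10 genes (vertical axes, linear from 0) in the 6 siNT and 6 siCHKA samples, with the mean and SD beside the points. KRT8 lay higher and EPCAM lower in all siCHKA samples, KRT8 and CDH1 were highest in siCHKA replicates 1, 3 and 5, and CDH2 was at 0 in all 12 samples.

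Among the keratins, KRT8 (ENSG00000170421, chromosome 12 from 52897187 to 52949954, minus strand, GRCh38) rose. The lowest, median and highest of the siNT samples were 146, 152 and 173 CPM, and those of the siCHKA samples 191, 217 and 255 CPM. Every siCHKA sample lay above every siNT sample, and replicates 1, 3 and 5, at 232, 247 and 255 CPM, lay above the other three. The log2 fold change was 0.51 (SE 0.08, 95% CI 0.34 to 0.67, edgeR adjusted p = 1.9e-05), and the exact permutation test of log2 CPM gave p = 0.00216 (two-sided), the smallest that 6 samples against 6 allow. It was 0.66 with siCHKA replicates 1, 3 and 5 only and 0.33 with replicates 2, 4 and 6 only, and it passed in both.

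Its partner KRT18 (ENSG00000111057, chromosome 12 from 52948871 to 52952906, plus strand) moved the other way. KRT18 was measured at 141 CPM in the lowest, 149.6 CPM in the median and 155 CPM in the highest siNT sample, and at 125, 136 and 147 CPM in the siCHKA samples. Replicates 2, 4 and 6 of siCHKA lay below all siNT samples and the other three lay within their range. The log2 fold change of -0.12 (SE 0.05) passed narrowly (edgeR adjusted p = 0.046). The call was lost in 11 of 20 alternative settings, among them siCHKA replicates 1, 3 and 5 only, which gave -0.036 (edgeR adjusted p = 0.591), and the omission of any 1 of 7 samples (siCHKA replicates 2, 4 and 6, siNT replicates 1, 3, 4 and 6). With siCHKA replicates 2, 4 and 6 only it was -0.22 (edgeR adjusted p = 0.00166).

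The balance of the pair differed between the groups. The ratio of KRT8 to KRT18 CPM was 0.965, 1.08, 0.975, 1.17, 1.07 and 1.03 in siNT replicates 1 to 6 and 1.62, 1.49, 1.74, 1.54, 1.74 and 1.55 in siCHKA replicates 1 to 6. The ranges did not overlap, and both siCHKA sets lay above the highest siNT sample. On the log2 scale the ratio averaged 0.69 ± 0.09 (SD, n = 6) after siCHKA and 0.06 ± 0.10 (SD, n = 6) after siNT, a difference of 0.62 (exact permutation test, two-sided, p = 0.00216). The genes are neighbours on opposite strands, and their annotated spans overlap. Whether the counting used strand is not given in the sources used here. The part of reads from this overlap in the ratio was not tested.

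**Figure D2:**
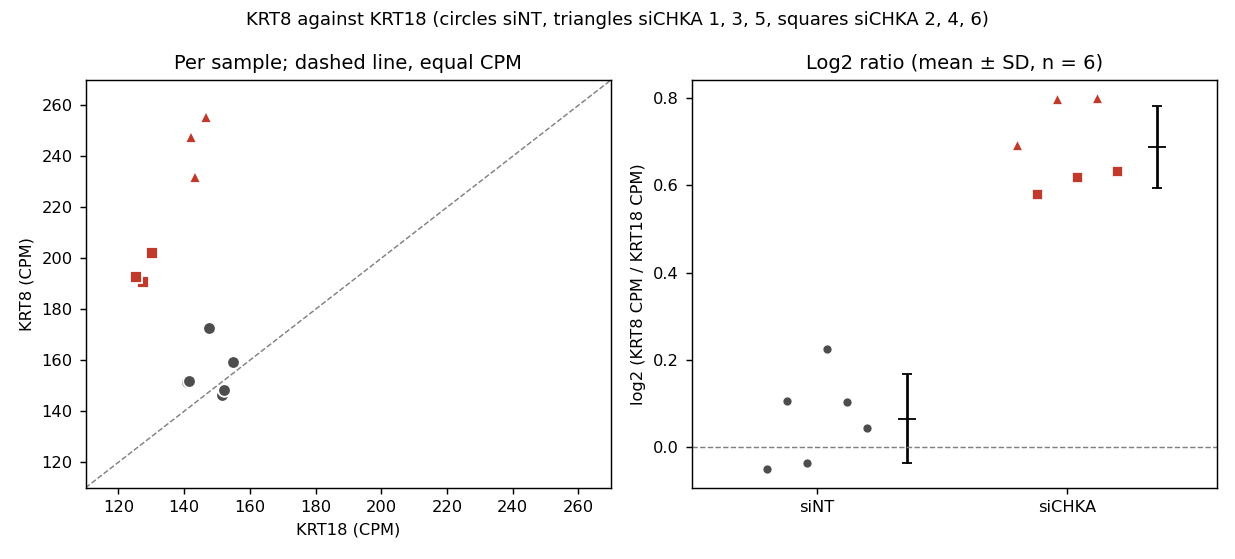
Left, KRT8 against KRT18 in CPM for each of the 12 samples, with a dashed line where both are equal. Right, the log2 ratio per sample with mean and SD. The siNT samples lie near the line and the siCHKA samples above it, with ratios of 1.49 to 1.74 against 0.965 to 1.17.

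Both keratins have many processed pseudogenes, which bears on what 40-base reads can be assigned to. Of the 40-base windows of the longest coding transcript, 83.7% for KRT8 and 88.8% for KRT18 occur with at most 2 mismatches in at least 1 annotated pseudogene of the same name, and 36.4% do for KRT19. Windows identical to a pseudogene were not counted apart. These shares therefore do not give the share of reads that could not be placed. The other 7 genes have no pseudogene named after them in the annotation. The pseudogene with the most reads was KRT8P12 (ENSG00000229320, chromosome 3 from 160565447 to 160569248), singled out after its values were seen. A stretch of exon 2 in the KRT8 coding sequence (chr12:52904938-52904967, GRCh38, minus strand) is set beside its copy in KRT8P12 as an example of a near-identical stretch, the capitals marking the 2 bases that differ (C3T and C30T, counted from 1 at the 5′ end of the stretch).
KRT8: gaCccagaagtcctacaaggtgtccacctC
KRT8P12: gaTccagaagtcctacaaggtgtccacctT
KRT8P12 was measured at 7.50, 8.46 and 9.13 CPM (lowest, median and highest) after siNT and at 10.5, 14.6 and 15.7 CPM after siCHKA, without overlap, a log2 fold change of 0.74 (SE 0.10, edgeR adjusted p = 3.17e-06). It drew 2367 reads over the 12 samples against 38988 for KRT8. On its own it shares 21.4% of the KRT8 windows, the rest of the 83.7% being shared with other pseudogenes. The part of shared reads in the changes of KRT8 and KRT18 was not tested.

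KRT19 (ENSG00000171345, chromosome 17 from 41523617 to 41528308, minus strand), which pairs with KRT8 in simple epithelia, was barely measured, with 15 to 40 reads per sample. It was at 1.12, 1.74 and 1.88 CPM in the lowest, median and highest siNT sample and at 0.735, 1.36 and 1.56 CPM after siCHKA. The groups overlapped, and the log2 fold change of -0.30 (95% CI -0.72 to 0.11, edgeR adjusted p = 0.19) did not pass. It was -0.38 with siCHKA replicates 1, 3 and 5 only and -0.24 with 2, 4 and 6 only, and leaving out siCHKA replicate 3 moved it to -0.18. Of the 18 other intermediate filament and lamin genes with an identifier, 7 passed the filter, of which 4 were lower and 1 higher, with a median of -0.53. The lower count was 4 and the higher 2 with siCHKA replicates 1, 3 and 5 only. Over all tested genes 30.1% were lower and 32.1% higher with all 12 samples. With siCHKA replicates 1, 3 and 5 only, 4300 were lower and 4408 higher of 14694 tested genes. The lamins LMNB1 and LMNB2, of the nuclear envelope, fell by 1.21 and 1.01 on the log2 scale and nestin (NES) by 0.82, while KRT10 rose by 0.46.

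EPCAM (ENSG00000119888, chromosome 2 from 47345158 to 47387601, plus strand), a surface glycoprotein of epithelial cells, fell to nearly the same level in every siCHKA sample. The siNT samples were at 139.8, 126, 133, 148, 129.6 and 130.2 CPM and the siCHKA samples at 103, 101, 97.2, 101, 102 and 101 CPM in replicates 1 to 6. All siCHKA samples lay below all siNT samples and within a narrow band. EPCAM stood at 75.2% of its siNT level, a log2 fold change of -0.41 (SE 0.05, 95% CI -0.51 to -0.31, edgeR adjusted p = 8.44e-07), with an exact permutation p of 0.00216 (two-sided). The siCHKA sets did not part on EPCAM, which averaged 101 CPM in each and gave -0.41 and -0.42 against siNT. Of 15 genes listed as EPCAM partners and proteases, 13 passed the filter, 4 lower and 4 higher, with a median of 0.05. The protease inhibitor SPINT1 fell by 0.56 on the log2 scale. The membrane protease matriptase (ST14) rose by 0.54 and prostasin (PRSS8) by 0.35. The claudin CLDN7 and the tetraspanin CD9, which bind EPCAM, had log2 fold changes of 0.10 and -0.03 that did not pass, although CLDN7 passed at 0.19 with siCHKA replicates 2, 4 and 6 only. In the list 2 genes were lower with replicates 1, 3 and 5 only and 5 with 2, 4 and 6 only. Of all tested genes 4300 of 14694 and 4594 of 14981 were lower with these sets. With all 12 samples the shares were 30.1% lower and 32.1% higher.

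CDH1 (ENSG00000039068, chromosome 16 from 68737292 to 68835537, plus strand) was the most counted of the 10 genes, with 6388 to 16887 reads per sample. The lowest, median and highest siNT samples were 529, 574 and 651 CPM, and the siCHKA samples 641, 756 and 854 CPM. siCHKA replicates 1, 3, 5 and 6 lay above all siNT samples and replicates 2 and 4 lay within their range. The log2 fold change was 0.35 (SE 0.08, 95% CI 0.18 to 0.53, edgeR adjusted p = 0.00152), and the exact permutation test without pairing gave p = 0.0108 (two-sided). The size of the rise depended on the set: it was 0.52 with siCHKA replicates 1, 3 and 5 only (edgeR adjusted p = 1.02e-05) and 0.16 with replicates 2, 4 and 6 only, where it no longer passed (edgeR adjusted p = 0.0618). CHKA averaged 2.13 CPM in siCHKA replicates 1, 3 and 5, at 2.15, 1.91 and 2.34 CPM. It averaged 3.37 CPM in replicates 2, 4 and 6, at 3.18, 4.67 and 2.27 CPM, so the sets overlapped on CHKA. Whether the depth of knockdown has a part in the difference between the sets was not tested.

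CTNNB1 (ENSG00000168036, chromosome 3 from 41194741 to 41260096, plus strand), which links E-cadherin to actin and carries the Wnt signal to the nucleus, did not follow CDH1. It was at 386, 404 and 426 CPM in the lowest, median and highest siNT sample and at 349.5, 371 and 402 CPM after siCHKA. siCHKA replicates 2, 4 and 6 and, by a small margin, replicate 3 lay below all siNT samples. The log2 fold change of -0.12 (SE 0.05) missed the threshold (edgeR adjusted p = 0.0558). It was -0.039 with siCHKA replicates 1, 3 and 5 only (edgeR adjusted p = 0.589) and -0.21 with 2, 4 and 6 only (edgeR adjusted p = 0.00357). It passed in 7 of 20 alternative settings, among them the latter and the omission of siCHKA replicate 1 or 5 or siNT replicate 2 or 6.

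**Figure D3:**
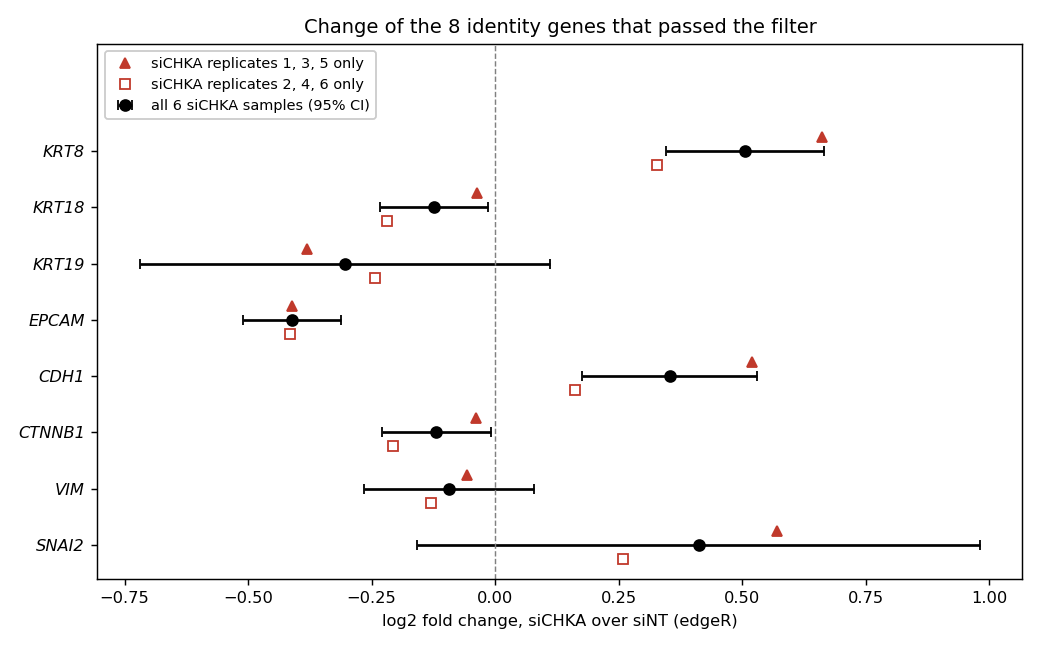
Log2 fold change of siCHKA over siNT (horizontal axis) for the 8 genes that passed the filter, with the 95% confidence interval from all 12 samples and, in red, the values with siCHKA replicates 1, 3 and 5 or 2, 4 and 6 only. EPCAM is the same in both sets, while KRT8 and CDH1 are larger with replicates 1, 3 and 5 (0.66 and 0.52) than with 2, 4 and 6 (0.33 and 0.16).

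The other genes of the adherens junction went in both directions. Of 16 cadherin and catenin partners 13 passed the filter, 7 lower and 2 higher, with a median log2 fold change of -0.12. Among all tested genes 30.1% were lower and 32.1% higher. In the alternative settings the lower count of the list ran from 5, as with the replicate block, to 9, with siCHKA replicates 2, 4 and 6 only. Of all tested genes 4273 of 14501 and 4594 of 14981 were lower with these settings. Vinculin (VCL), an actin linker, fell by 0.93, the nectin NECTIN1 by 0.87, LIMD1 by 0.71 and p120-catenin (CTNND1), which stabilizes E-cadherin at the membrane, by 0.51. The p120 relative ARVCF rose by 0.36. CDH15 rose by 0.61 from a low level, averaging 2.43 CPM after siNT and 3.77 CPM after siCHKA, and its groups overlapped. Alpha-catenin (CTNNA1) and plakoglobin (JUP) had log2 fold changes of -0.06 and 0.12 that did not pass. With siCHKA replicates 2, 4 and 6 only, CTNNA1 passed at -0.19 (edgeR adjusted p = 0.019) while it was 0.06 with 1, 3 and 5 only, and JUP passed with 1, 3 and 5 only at 0.23 (edgeR adjusted p = 0.00437) and was -0.0047 with 2, 4 and 6 only. All 22 genes of the beta-catenin destruction complex and its effectors passed the filter, 11 lower and 8 higher, with a median of -0.13. The lower count was 6 with siCHKA replicates 1, 3 and 5 only, 12 with 2, 4 and 6 only and 7 with 1 count file per sample. Over all tested genes 4300 of 14694, 4594 of 14981 and 3467 of 11994 were lower in these settings. BTRC, which marks beta-catenin for degradation, fell by 1.11, and the coactivators BCL9L and PYGO2 by 0.97 and 0.51, while TCF7L1 rose by 1.49, BCL9 by 0.50 and the Wnt target AXIN2 by 0.34.

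Beyond the adherens junction, 22 of 23 tight junction genes passed the filter, of which 3 were lower and 6 higher with a median of -0.01. With siCHKA replicates 2, 4 and 6 only 6 were lower, and with 1, 3 and 5 only 2 were. Of all tested genes 4594 of 14981 and 4300 of 14694 were lower with these sets. With all 12 samples 30.1% were lower and 32.1% higher. The adhesion molecule F11R fell by 0.89, the claudin CLDN3 by 0.23 and occludin (OCLN) by 0.16 (-0.08 and not past with siCHKA replicates 1, 3 and 5 only), while TJP3 rose by 0.52, CRB3 by 0.46 and PARD6B by 0.37. Of 13 desmosome and plakin genes 12 passed, 4 lower and 4 higher with a median of 0.16. With siCHKA replicates 1, 3 and 5 only 7 of the list were higher, as were 4408 of all 14694 tested genes. The desmosomal cadherins DSG2 and DSC3 fell by 0.39 and 1.23 and the plakin DST by 0.66, and plakophilin 2 (PKP2) rose by 0.55, PPL by 0.54 and EVPL by 0.42. Of 16 epithelial regulators 15 passed, 8 lower and 2 higher with a median of -0.16. Among the 8 were the splicing factor ESRP2, at -0.60, and the trafficking genes MAL2 and RAB25, at -0.79 and -0.61, and the 2 higher genes were TMC4 at 1.27 and ELF3 at 0.62.

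**Figure D4:**
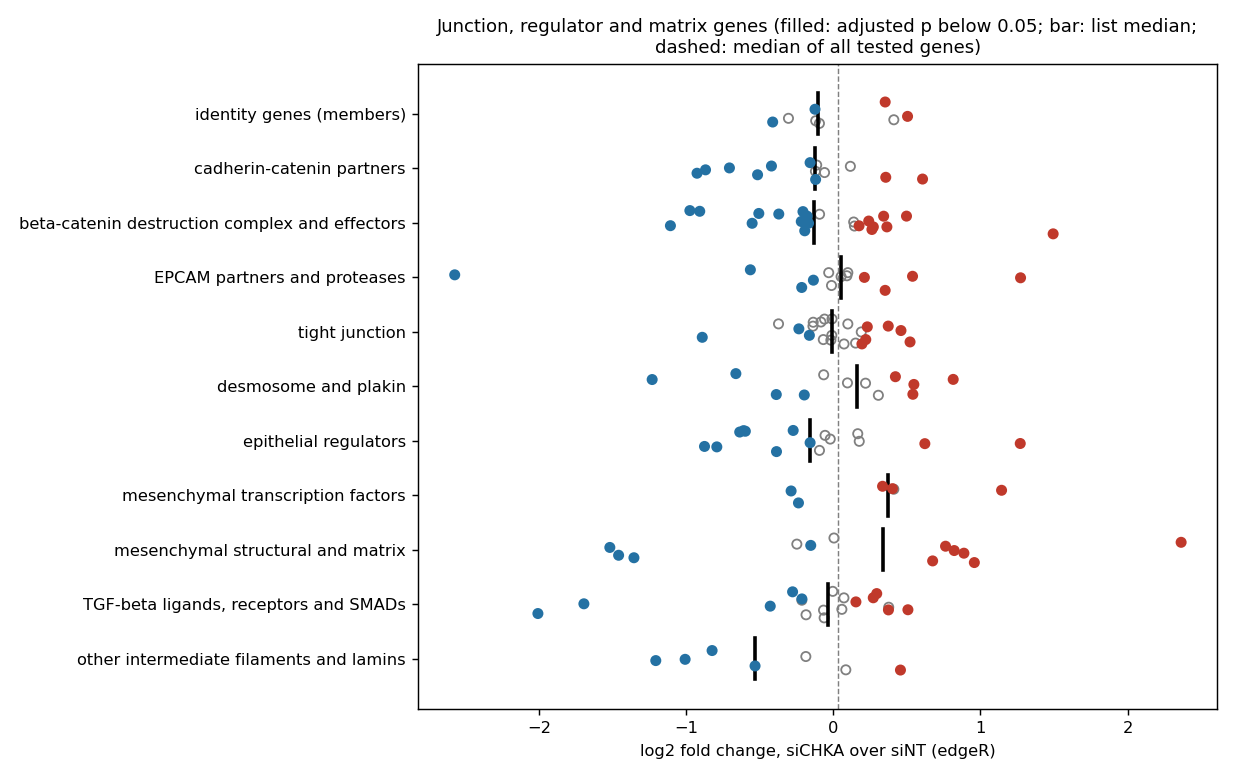
Log2 fold change of siCHKA over siNT (horizontal axis) for each gene that passed the filter, by list; filled points passed an adjusted p of 0.05, blue lower and red higher, the black bar is the list median and the dashed line the median of all tested genes, 0.03. Each list plotted holds genes past the threshold in both directions.

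On the mesenchymal side, CDH2 (ENSG00000170558, chromosome 18 from 27932879 to 28177946, minus strand) had 0 reads in each of the 12 samples, which at 3 counts allows up to 0.281 CPM in the shallowest sample and up to 0.124 CPM in the deepest. These limits are by library size alone, without TMM normalization, and cover counting error only. In read counts, not divided by gene length, CDH1 was at least 2129-fold higher than CDH2 set at 3 counts in the sample with the fewest CDH1 reads and at least 5629-fold higher in the sample with the most. CDH2 was thus not detectable at this depth in either group, and no change in its balance with CDH1 could be tested.

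VIM (ENSG00000026025, chromosome 10 from 17228241 to 17237593, plus strand) was low but measured in every sample, with 121 to 252 reads. It was at 10.5, 12.5 and 14.8 CPM in the lowest, median and highest siNT sample and at 10.8, 11.8 and 12.4 CPM after siCHKA, so that the siCHKA values lay wholly within the siNT range. The log2 fold change was -0.09 (95% CI -0.27 to 0.08, edgeR adjusted p = 0.33). It was -0.06 with siCHKA replicates 1, 3 and 5 only and -0.13 with 2, 4 and 6 only, and leaving out siNT replicate 2 or 4 moved it to -0.15 or -0.049.

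The repressors were near the floor. SNAI2 (ENSG00000019549, chromosome 8 from 48917598 to 48921740, minus strand) had 5 to 17 reads per siNT sample and 14 to 23 per siCHKA sample, or 0.342, 0.791 and 1.06 CPM against 0.677, 1.02 and 1.21 CPM (lowest, median and highest). The groups overlapped, and the log2 fold change of 0.41 had a wide interval (95% CI -0.16 to 0.98, edgeR adjusted p = 0.196). It was 0.57 with siCHKA replicates 1, 3 and 5 only and 0.26 with 2, 4 and 6 only, and leaving out siNT replicate 2 moved it to 0.20. ZEB1 (ENSG00000148516, chromosome 10 from 31318495 to 31529814, plus strand) had 2 to 5 reads per siNT sample and 2 to 12 per siCHKA sample. Its levels of 0.118 to 0.487 CPM and 0.161 to 0.580 CPM overlapped (exact permutation test, two-sided, p = 0.335). The antisense neighbour of ZEB1, ZEB1-AS1 (ENSG00000237036, chromosome 10 from 31206278 to 31320447, minus strand), singled out after its values were seen, was counted more often than ZEB1. It was at 0.973, 1.20 and 1.74 CPM (lowest, median and highest) after siNT and 3.09, 3.28 and 3.93 CPM after siCHKA, without overlap, a log2 fold change of 1.34 (SE 0.15, edgeR adjusted p = 6.56e-07). VIM-AS1, looked up in the same way, had 0.23 (edgeR adjusted p = 0.262). The annotated spans of ZEB1 and ZEB1-AS1 overlap, as do those of VIM and VIM-AS1. Whether the counting used strand is not given in the sources used here, so reads of these overlaps cannot be told apart if it did not.

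Other mesenchymal genes went both ways, beside 30.1% of all tested genes lower and 32.1% higher. Of 15 mesenchymal transcription factors, which include SNAI2 and ZEB1, 6 passed the filter, 3 higher and 2 lower with a median of 0.37. SOX9 rose by 1.14, SNAI1 by 0.40, from 4.48 to 5.97 CPM, and TCF4 by 0.34 (0.20 and not past with siCHKA replicates 2, 4 and 6 only), while TCF3 fell by 0.24. TWIST2 and FOXC2 had no reads. Of 26 mesenchymal structural and matrix genes 12 passed, 6 higher and 4 lower with a median of 0.34. The collagens COL5A1, COL6A1 and COL1A1 rose by 2.36, 0.96 and 0.82, whereas fibronectin (FN1) fell by 1.52, from 273 to 95.3 CPM, PDGFRB by 1.46 and LOX by 1.35. The fibroblast and smooth muscle markers, which hold COL1A1 and PDGFRB too, summed to 16.2 to 23.6 CPM after siNT and 26.7 to 34.5 CPM after siCHKA, with LUM, DCN, COL1A2 and PDGFRA below 0.2 CPM in both groups. Of 19 genes of TGF-beta signalling, an inducer of the transition, 18 passed, 5 lower and 5 higher with a median of -0.03. With siCHKA replicates 2, 4 and 6 only 7 were lower and 3 higher, beside 4594 and 4718 of all 14981 tested genes. TGFB2 and the coreceptor TGFBR3 fell by 2.01 and 1.69 and the activin receptor ACVR1B by 0.43, while LTBP1 rose by 0.51, SKIL by 0.38 and LTBP3 by 0.30.

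The marker lists give the setting of these changes, beside 30.1% of all tested genes lower and 32.1% higher. Among the luminal markers 5 were lower and 2 higher, among them KLK3 at -0.55, TMPRSS2 at -1.27, FOXA1 at -0.19, HOXB13 at -0.16 and FOLH1 at 0.36, and STEAP2 at 0.05 did not pass. The basal markers summed to 16.5 to 25.4 CPM after siNT and 12.4 to 19.4 CPM after siCHKA, with KRT14 at 0.58, DST at -0.66 and LAMB3, below 1 CPM on average, also higher. The neuroendocrine markers summed to 7.09 to 13.5 CPM and 13.0 to 23.7 CPM, with ENO2 at 1.11 and SYP at 0.74, and INSM1 had no reads. The leukocyte and endothelial markers summed to 4.95 to 7.53 CPM and 5.54 to 8.07 CPM, with CD68 at 0.68 and VWF at -0.99, and CD3E had no reads. Their part in the changes of the identity genes was not tested.

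To set the genes against each other, counts were divided by the length of all merged exons (RPKM, here CPM per kilobase of exon). These exons are those of GENCODE release 44, whereas reads were counted on Ensembl release 64 genes, whose exon lengths may differ. In siNT samples CDH1 stood first at 96.4 ± 8.50 RPKM (SD, n = 6), followed by EPCAM at 55.3 ± 3.33, KRT18 at 48.2 ± 1.90, CTNNB1 at 34.4 ± 1.44 and KRT8 at 22.5 ± 1.41, and then at a distance by VIM at 2.42 ± 0.27, KRT19 at 0.678 ± 0.147, SNAI2 at 0.226 ± 0.093 and ZEB1 at 0.0334 ± 0.0146 RPKM. The ranges of neighbours in this order did not overlap. After siCHKA CDH1 stayed first at 123 ± 16.6 RPKM. KRT18 at 44.3 ± 3.00 and EPCAM at 41.6 ± 0.832 RPKM then overlapped, as did KRT8 at 32.0 ± 4.15 and CTNNB1 at 31.7 ± 1.98 RPKM, and KRT19 and SNAI2. The 5 leading genes change places when the length of the longest coding transcript is used, which puts CTNNB1 at 129 and CDH1 at 122 RPKM in siNT samples, so their order depends on the length used. Under both lengths these 5 stood above VIM, KRT19, SNAI2 and ZEB1, which kept that order in siNT samples without overlap of neighbours. CDH1 had the highest mean after siCHKA under both. With the longest coding transcript its siCHKA range of 133 to 177 RPKM overlapped that of KRT8, at 113 to 151 RPKM. The levels of KRT8 and KRT18 count only reads that could be placed.

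Across the 12 samples, after centring within each group, KRT8, KRT18, CDH1 and CTNNB1 varied together, with Pearson correlations from 0.66 (CDH1 and CTNNB1) to 0.93 (KRT8 and CDH1) over their pairs. EPCAM had 0.17 with CDH1 and 0.18 with KRT8, but 0.71 with VIM. The points share the division of the siCHKA libraries into sets, and these are descriptions. Among 9629 tested genes with at least 10 CPM, those most like CDH1 by this measure were UBE2H (0.985), TOP2B (0.983) and SECISBP2L (0.980), those most like CTNNB1 were CSE1L (0.971), SLC9A2 (0.970) and MAP2K4 (0.965), and those most like VIM were OGFRL1 (0.858), CKMT2-AS1 (0.834) and DNAJC1 (0.834).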

How the data were processed

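RNA from 12 C4-2 samples was sequenced as single-end reads of 40 bases (TruSeq RNA kit). The authors mapped them to GRCh37 with TopHat2 2.0.4, counted reads on Ensembl release 64 genes with HTSeq 0.5.3p9 and deposited raw counts, in 4 files per sample, which were summed here. Groups and replicate numbers came from the sample labels. Symbols and the printed GRCh38 coordinates are those of GENCODE by Ensembl identifier, which matched 82.8% of identifiers, and no coordinates were converted. NEFL and PECAM1 had no identifier.

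The main test was the quasi-likelihood test of edgeR 4.0.16 (R 4.3.3) between siCHKA and siNT, with no covariate (filterByExpr with a minimum count of 10, TMM, Benjamini-Hochberg adjustment over 14501 genes, threshold 0.05). Log2 CPM used a prior count of 2. Exact permutation tests, two-sided, were computed with scipy 1.17.1. The procedure was tested on simulated counts. The floor was set at 3 counts in every sample. The depth of 10685184 to 24246055 reads per sample sets its level in CPM. Alternatives were RLE normalization, DESeq2 1.42.0, no filter, 10 counts in every sample, a replicate block, each sample left out, siCHKA replicates 1, 3 and 5 or 2, 4 and 6 only, and 1 count file per sample.

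The members, the gene lists, the siCHKA sets and the tests were chosen with earlier results of these data known. The genes named are all members, in each list at most 3 lower and 3 higher genes with the smallest p among those past the threshold and moved the same way in at least 5 of 6 same-numbered pairs, the cell type markers above 1 CPM, and the 3 genes most correlated with CDH1, CTNNB1 and VIM. KRT8P12, ZEB1-AS1, VIM-AS1, and the genes CTNND1, CTNNA1, JUP, CLDN7, CD9, LAMB3 and those given as unread or near 0, were added after their values were seen. Some genes that this rule names are not reported here. The ratio of CDH2 to CDH1 was not tested because CDH2 had no reads.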

Additional observations from a re-analysis of the deposited data

Results flagged for a closer look

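Of 22 groups of 6 samples examined, 1 held a sample set apart from the others by Dixon's criterion, and chance gives about 1.1. EPCAM in siCHKA replicate 3 was at 97.2 CPM, below the other siCHKA samples at 101 to 103 CPM, with a gap to the nearest of 0.655 of the range of the group. Without that sample the direction and the call of EPCAM held.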

How the results depend on the processing

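The calls of CHKA, KRT8 and EPCAM held in all 20 alternatives, with KRT8 between 0.33 and 0.66 and EPCAM between -0.44 and -0.39, and the ratio of KRT8 to KRT18 in all 16 (0.55 to 0.70). KRT18 no longer passed with 10 counts in every sample (-0.10), with the replicate block (-0.13, adjusted p = 0.0636), with siCHKA replicates 1, 3 and 5 only (-0.036) or with 1 count file per sample (-0.087), and ran from -0.15 to -0.10 when each sample was left out. In these 4 settings 1 member was lower instead of 2, and 1 to 3 were when each sample was left out. CDH1 did not pass with siCHKA replicates 2, 4 and 6 only (0.16), which left 1 member higher. CTNNB1 passed with RLE normalization (-0.13), DESeq2 (-0.13) and siCHKA replicates 2, 4 and 6 only (-0.21), and ran from -0.14 to -0.10 with each sample left out. With 1 count file per sample, 33 genes of the lists were lower instead of 52 and 33 higher instead of 41, while 3467 of all 11994 tested genes were lower and 3413 higher, against 4371 and 4650 of 14501. With siCHKA replicates 1, 3 and 5 only 39 genes of the lists were lower and 47 higher. Of all 14694 genes tested there, 4300 were lower and 4408 higher. With 2, 4 and 6 only 65 genes of the lists were lower and 37 higher. Of all 14981 genes tested there, 4594 were lower and 4718 higher. KRT19, VIM and SNAI2 did not pass in any setting that tested them, though leaving out 1 sample moved them to between -0.40 and -0.18, -0.15 and -0.049, and 0.20 and 0.55. The cause of these changes was not tested.

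With the length of the longest coding transcript the levels in siNT samples were 91.9 for KRT8, 104 for KRT18, 1.14 for KRT19, 87.8 for EPCAM, 122 for CDH1, 129 for CTNNB1, 5.81 for VIM, 0.0487 for ZEB1 and 0.340 for SNAI2 RPKM, and in siCHKA samples 130.4 for KRT8, 95.7 for KRT18, 0.917 for KRT19, 66.0 for EPCAM, 156 for CDH1, 119 for CTNNB1, 5.44 for VIM and 0.450 for SNAI2 RPKM.

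The labels do not say whether same-numbered samples were prepared together. Same-numbered samples correlated in their deviations from the group means by -0.40 to 0.32, over 0.1 in 2 of 6 pairs. Of 6 siCHKA samples 1 correlated best with its own number. The siCHKA deviations also hold the division into sets, so these values cannot decide whether the numbers pair the samples. Apart from KRT18, the block changed no call among the members. No test of the ratio of CDH2 to CDH1 was run under any setting. Without a filter ZEB1 had a log2 fold change of 0.60 (edgeR adjusted p = 0.29), and depth limits what can be said of ZEB1, SNAI2, KRT19 and CDH2.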
